A study of Mus musculus with 8 samples.

Results

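The collagen genes described here are 7 members of the collagen family that were read in the brain of newborn mice by ribosome profiling, a method that sequences the messenger RNA fragments covered by ribosomes. They are the fibrillar collagens Col1a1, Col1a2, Col3a1, Col5a1 and Col5a2 and the basement membrane collagens Col4a1 and Col4a2. The genes were chosen by name, with earlier results of these data known, and each gene's transcript was chosen by its total count over the 8 libraries: each gene stands for its most covered protein-coding transcript, out of 21874 coding genes counted in the same way. The 7 genes have 30 transcripts in the deposited table, of which 12 are protein-coding, and the longest coding transcript (suffix 001) was the most covered one for every gene. The total counts used to pick the transcripts are no finding.

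All mice carried the human SMN2 transgene on 1 allele, on a congenic FVB background ('Taiwanese' model of severe spinal muscular atrophy, SMA), and whole brains were taken at postnatal day 5. Brains of phenotypically normal Smn+/-; SMN2tg/0 littermates gave 3 libraries of ribosomes pulled down with an antibody to the survival motor neuron protein (SMN IP) and 1 library from a pull-down with IgG (IgG IP), which controls for unspecific isolation. Brains of early symptomatic Smn-/-; SMN2tg/0 mice, which lack functional mouse Smn, gave 2 libraries of active ribosomes captured with RiboLace and 2 libraries from polysomes of a sucrose gradient. Litters were genotyped by PCR, and the replicates are labelled as biological replicates, without a statement on how the brains were divided among libraries.

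These collagens are secreted proteins of 3 chains wound into a triple helix. Fibrillar collagens assemble into the fibres of connective tissue; in the brain they are made mainly by fibroblasts of the meninges and around vessels. Type IV collagen forms the network of basement membranes, here chiefly of blood vessels and the pial surface, and endothelial cells and pericytes are known sources of it. Type I, type IV and type V trimers hold more of their first chain (Col1a1, Col4a1, Col5a1) than of their second (Col1a2, Col4a2, Col5a2), while type III is built of Col3a1 alone.

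The promoters of 5 of the 7 genes were found in the RefSeq table of promoter windows (GRCm38.p6), and 3 stretches are shown because they set the fibrillar genes Col1a2 and Col3a1 beside the paired type IV genes. Capitals mark a match to CCAAT in Col1a2, which starts at position -109 from the transcription start, and a match to TATAAA in Col3a1, which starts at position -117. Both are matches of sequence only, and whether they act in these promoters was not tested. Both lines show the 150 bases before the start. The last line holds 22 bases, from the start of Col4a2 on the plus strand to that of Col4a1 on the minus strand. These bases lie downstream of both starts, so the 2 genes overlap there.
Col1a2, chr6:4505468-4505617, plus strand: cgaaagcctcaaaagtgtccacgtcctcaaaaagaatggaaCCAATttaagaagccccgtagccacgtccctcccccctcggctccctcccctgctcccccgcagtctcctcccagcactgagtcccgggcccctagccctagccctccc
Col3a1, chr1:45311388-45311537, plus strand: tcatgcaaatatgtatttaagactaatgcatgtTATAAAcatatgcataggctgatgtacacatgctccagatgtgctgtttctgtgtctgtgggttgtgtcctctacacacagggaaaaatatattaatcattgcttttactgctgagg
Col4a1 and Col4a2, chr8:11312805-11312826, plus strand: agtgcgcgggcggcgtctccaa

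Both strands of the 250 bases before each start were searched for the CCAAT box, the TATAAA box and the GC box GGGCGG, and no hit in a member overlapped another. CCAAT is present in the windows of Col1a2, Col4a1 and Col4a2 and in 33.8% of all 32851 windows of that length. TATAAA was found in that of Col3a1 and in 12.4% of all windows, and GGGCGG in those of Col1a2, Col4a2 and Col5a1 and in 32.7% of all windows. The GC content of these 250 bases is 35.2% for Col3a1, against 62% for Col1a2, 74.4% for Col4a1, 73.6% for Col4a2 and 76.4% for Col5a1, where the median of all windows is 52.4%. Col4a1 and Col4a2 lie head to head on chromosome 8, and their annotated gene spans share 85 bases. The Col4a1 span reaches past the start used for its promoter window, so this exceeds the 22 bases shown. Col3a1 and Col5a2 are neighbours on chromosome 1, 24.6 kb apart. The other members lie on chromosomes 11 (Col1a1), 6 (Col1a2) and 2 (Col5a1).

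The libraries differed widely in depth. Reads on 1 coding transcript per gene numbered 133295 to 237760 in SMN IP, 206690 in IgG IP, 39375 and 47846 in RiboLace and 1661834 and 2295393 in polysome libraries. All 8 neuron markers checked had reads in every library, with a summed level of 5867 to 11788 reads per 1000000 coding reads (CPM). Smn1 had 97.5 to 159 CPM in SMN IP and 29.0 CPM in IgG IP, against 0 and 41.8 CPM in RiboLace and 30.7 and 33.5 CPM in polysomes. The null allele of this model removes only part of Smn1 and the counts cover the whole transcript, so this level checks no label.

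The 7 collagen genes took a larger share of the footprints in both pull-downs than in the SMA libraries. They held 0.280%, 0.470% and 0.381% of coding reads in the SMN IP libraries and 0.399% in IgG IP, against 0.0794% and 0.112% in RiboLace and 0.104% and 0.136% in polysomes. The exact binomial 95% intervals of the pull-downs, from 0.253% to 0.509% over the 4 libraries, lay above those of RiboLace and polysomes, from 0.0562% to 0.150%. These intervals and those below cover counting error only. SMN IP and IgG IP overlapped, and so did RiboLace and polysomes. In whole tissue, fewer cells of a type and less RNA per cell cannot be told apart.

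Col3a1 (ENSMUSG00000026043), the single chain of type III collagen and a fibre protein of meninges and vessel walls, differed most between pull-downs and polysomes. It had 1092, 1268 and 1295 CPM in SMN IP and 1490 CPM in IgG IP, against 83.6 and 102 CPM in RiboLace and 132 and 165 CPM in polysomes. All 4 pull-down libraries lay above all 4 SMA libraries, with no overlap. By CPM, Col3a1 ranked 46 to 57 among the coding genes in SMN IP and 40 in IgG IP, against 2071 and 2576 in RiboLace and 1457 and 1965 in polysomes. The RiboLace values rest on 4 reads in each library.

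Col1a1 (ENSMUSG00000001506), the major chain of type I collagen, was the most variable member within SMN IP. It had 463, 1500 and 1110 CPM in SMN IP and 992 CPM in IgG IP, against 230 and 279 CPM in RiboLace and 299 and 474 CPM in polysomes. The lowest SMN IP library lay just under the higher polysome library, so those groups overlapped in CPM; after TMM scaling, which the tests use, they did not. Col1a2 (ENSMUSG00000029661), the partner chain, had 333, 668 and 370 CPM in SMN IP and 305 CPM in IgG IP, against 105 and 381 CPM in RiboLace and 254 and 311 CPM in polysomes. Its SMN IP libraries lay above polysomes by a small margin, and its IgG IP level fell between the polysome values.

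Col5a1 (ENSMUSG00000026837) and Col5a2 (ENSMUSG00000026042) encode chains of type V collagen, which starts and limits the growth of type I fibrils. Col5a1 had 72.3, 60.0 and 50.5 CPM in SMN IP and 53.2 CPM in IgG IP, against 20.9 and 0 CPM in RiboLace and 43.3 and 51.4 CPM in polysomes. SMN IP and polysomes overlapped in CPM, though not after TMM scaling, and RiboLace had 1 read in 1 library and 0 in the other. There a count of 0 allows up to 76.2 CPM by a floor of 3 counts, and 93.7 CPM by the exact Poisson 95% interval. Col5a2 had 123, 150 and 130 CPM in SMN IP and 111 CPM in IgG IP, against 83.6 and 25.4 CPM in RiboLace and 33.1 and 50.1 CPM in polysomes. Each pull-down library lay above the RiboLace and polysome libraries.

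Col4a1 (ENSMUSG00000031502) and Col4a2 (ENSMUSG00000031503) form the type IV network found in all basement membranes. Col4a1 had 463, 570 and 564 CPM in SMN IP and 643 CPM in IgG IP, against 105 and 178 CPM in RiboLace and 148 and 171 CPM in polysomes. Col4a2 had 253, 488 and 294 CPM in SMN IP and 392 CPM in IgG IP, against 167 and 152 CPM in RiboLace and 132 and 133 CPM in polysomes. For both genes the 4 pull-down libraries lay above the 4 SMA libraries.

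**Figure D1:**
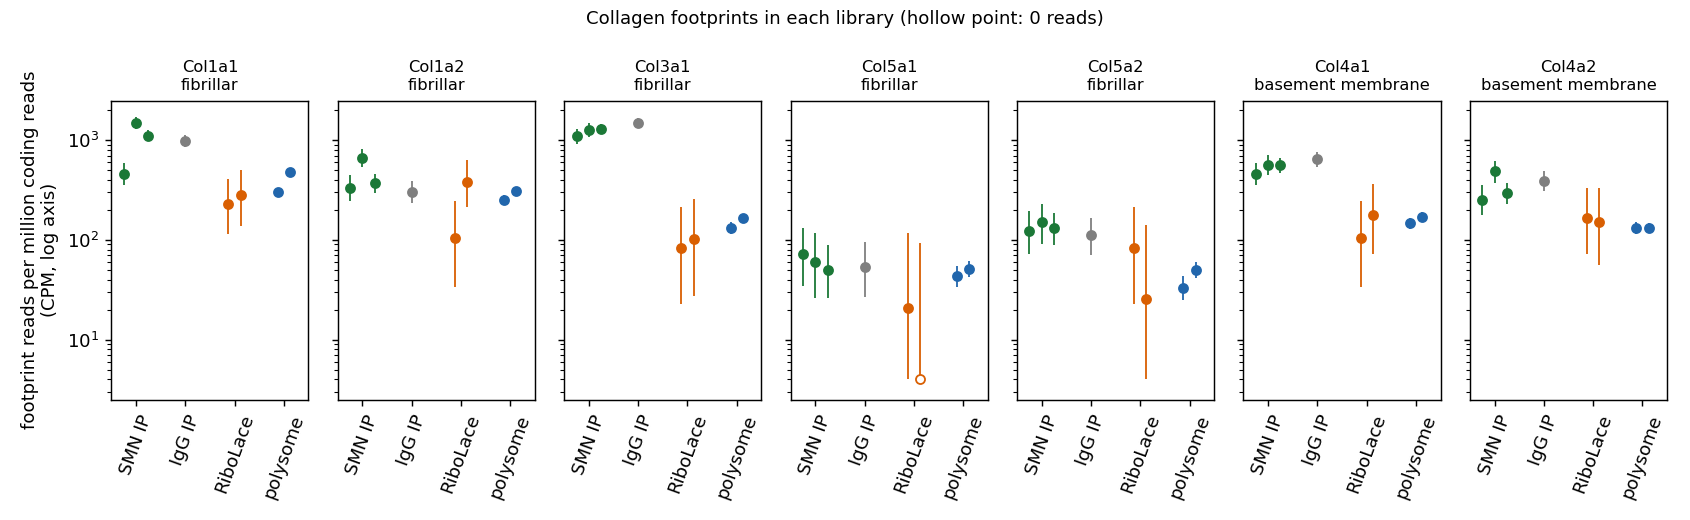
Footprint reads of each collagen gene in CPM (log axis) in the 8 libraries, with exact Poisson 95% intervals; the hollow point at the bottom stands for the RiboLace library with 0 reads of Col5a1, and no interval is drawn below its height. Points are single libraries, grouped as SMN IP, IgG IP, RiboLace and polysome; Col3a1 sits at 1092 to 1490 CPM in the pull-downs, against 83.6 to 165 CPM in the SMA libraries, while Col5a1 stays between 43.3 and 72.3 CPM in all groups except RiboLace.

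Per kb of coding region, which sets genes of different length on 1 scale, the order of the members differed between pull-downs and polysomes. In SMN IP, Col3a1 averaged 277 ± 25.1 CPM per kb and Col1a1 235 ± 120 (SD, n = 3), followed by Col1a2 at 111 ± 44.6, Col4a1 at 106 ± 12.0, Col4a2 at 67.3 ± 24.4, Col5a2 at 29.9 ± 3.11 and Col5a1 at 11.0 ± 1.99. The ranges of Col3a1, Col1a1, Col1a2, Col4a1 and Col4a2 each overlapped those of their neighbours in that order, and only the steps down to Col5a2 and to Col5a1 were free of overlap. In IgG IP the order began with Col3a1 at 339 CPM per kb and Col1a1 at 227, then Col4a1 at 128, Col4a2 at 76.5, Col1a2 at 74.0, Col5a2 at 24.8 and Col5a1 at 9.65.

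In polysomes Col1a1 stood first at 88.7 ± 28.4 CPM per kb and Col1a2 next at 68.5 ± 9.73 (SD, n = 2), with Col3a1 at 33.7 ± 5.29, Col4a1 at 31.9 ± 3.27, Col4a2 at 25.8 ± 0.151, Col5a2 at 9.26 ± 2.68 and Col5a1 at 8.59 ± 1.04. The ranges of Col1a1 and Col1a2, of Col3a1 and Col4a1, and of Col5a2 and Col5a1 overlapped. In RiboLace the means were 58.9 ± 47.5 for Col1a2, 58.4 ± 8.02 for Col1a1, 31.2 ± 2.05 for Col4a2, 28.2 ± 10.3 for Col4a1, 21.1 ± 2.89 for Col3a1, 12.1 ± 9.16 for Col5a2 and 1.89 ± 2.68 for Col5a1 (SD, n = 2). With 1 to 22 reads per gene over both libraries, this order was not resolved at this depth.

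The fibrillar collagens together outweighed the basement membrane collagens in every library. Per kb of coding region, summed fibrillar over summed basement membrane reads was 3.36, 4.01 and 3.99 in SMN IP and 3.29 in IgG IP, against 2.23 and 2.84 in RiboLace and 3.17 and 4.03 in polysomes. The mean was 3.79 ± 0.372 in SMN IP (SD, n = 3), against 2.54 ± 0.429 in RiboLace and 3.60 ± 0.604 in polysomes (SD, n = 2 each). The ranges of SMN IP and polysomes overlapped, and the RiboLace intervals, from 1.10 to 5.92, covered the values of all other libraries. No test was made of sums over the members.

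Within the fibrillar genes Col3a1 was also set over Col1a1, a ratio outside the planned ones. Col3a1 has the largest pull-down difference of the members, so this ratio partly restates that difference. The ratio of Col3a1 to Col1a1 per kb was 2.34, 0.84 and 1.16 in SMN IP and 1.49 in IgG IP, against 0.36 in each RiboLace library and 0.44 and 0.34 in polysomes. All 4 pull-down ratios lay above all 4 SMA ratios. Col3a1 made up 39.0%, 27.0% and 34.0% of the reads of the 7 genes in SMN IP and 37.4% in IgG IP, against 10.5% and 9.09% in RiboLace and 12.7% and 12.2% in polysomes.

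The chain ratios of the type I and type IV trimers were at or above 1 in most libraries. Col1a1 over Col1a2, per kb, was 1.31, 2.12 and 2.83 in SMN IP and 3.07 in IgG IP, against 2.08 and 0.69 in RiboLace and 1.11 and 1.44 in polysomes. Col4a1 over Col4a2 was 1.87, 1.20 and 1.96 in SMN IP and 1.68 in IgG IP, against 0.64 and 1.19 in RiboLace and 1.15 and 1.32 in polysomes. SMN IP overlapped polysomes for both ratios.

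Type V differed, with less of the first chain than of the second in the pull-downs. Col5a1 over Col5a2 was 0.48, 0.33 and 0.32 in SMN IP and 0.39 in IgG IP, against 0.20 and 0 in RiboLace and 1.07 and 0.84 in polysomes. The values of the pull-down and polysome libraries did not overlap, although the exact 95% interval of SMN IP replicate 1, 0.196 to 1.11, reached into the polysome range. The intervals of SMN IP replicate 2 (up to 0.772) and IgG IP (up to 0.832) overlapped that of polysome replicate 2, 0.641 to 1.09. The interval of SMN IP replicate 3 (up to 0.631) did not. The pull-down ratios rest on 8 to 12 reads of Col5a1 per library.

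**Figure D2:**
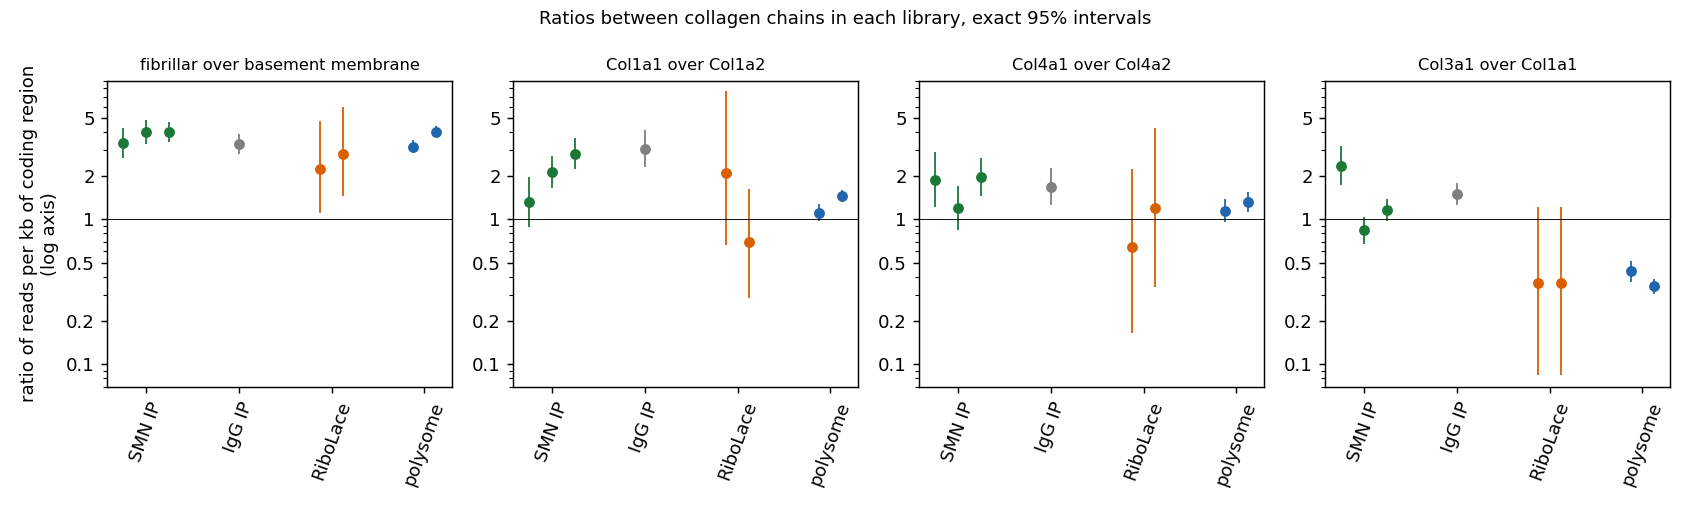
Ratios of reads per kb of coding region (log axis) in each library with exact binomial 95% intervals, for fibrillar over basement membrane collagens, Col1a1 over Col1a2, Col4a1 over Col4a2 and Col3a1 over Col1a1. Points are libraries in the order SMN IP, IgG IP, RiboLace and polysome; the fibrillar to basement membrane ratio lies between 2.23 and 4.03 throughout, whereas Col3a1 over Col1a1 lies at 0.84 to 2.34 in the pull-downs, against 0.34 to 0.44 in the SMA libraries.

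The first comparison set SMN IP against IgG IP, the question being which footprints come with SMN rather than with the beads and antibody. None of the 7 collagen genes was called (edgeR's quasi-likelihood test, Benjamini-Hochberg over 5517 genes, called under 0.05; 0 had an unadjusted p under 0.05), where 0% of all genes tested were called higher and 0.0181% lower. DESeq2 and limma-voom also called none of the 7. The log2 fold changes were 0.59 for Col1a2, 0.28 for Col5a2, 0.18 for Col5a1, 0.06 for Col1a1, -0.17 for Col4a2, -0.26 for Col4a1 and -0.27 for Col3a1, each with an adjusted p of 0.999. Each 95% interval covered 0, and over the 7 genes they reached from -1.15 at the lowest to 1.55 at the highest. In simulated counts for this comparison, changes were put on genes drawn at random from all those tested. The test recovered 39 of 100 4-fold changes and 3 of 100 2-fold changes, so over all genes such changes could be missed. Recovery for genes with as many reads as the collagens was not tested. The 1 IgG IP library has no replicate, and the spread came from the SMN IP libraries.

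RiboLace against polysomes compared active ribosomes with polysomal ones in brains of the same genotype. Again 0 of the 7 genes were called by edgeR, and 0 had an unadjusted p under 0.05, where 1.31% of 10807 genes were called higher and 0.925% lower; DESeq2 and limma-voom called none of the 7 either. Fold changes on the log2 scale were 0.39 for Col5a2, 0.24 for Col4a2, -0.26 for Col4a1, -0.35 for Col1a2, -0.67 for Col1a1, -0.75 for Col3a1 and -2.09 for Col5a1, beside a median of -0.29 over all genes tested. The adjusted p ran from 0.356 for Col1a1 to 0.876 for Col5a2. Pooled over libraries, Col5a1 had 1 read in RiboLace and 190 in polysomes, a CPM ratio of 0.239 with an exact 95% interval of 0.00601 to 1.35. For Col1a1 the pooled ratio was 0.629, with an interval of 0.393 to 0.956 that covers counting error only. The intervals of all other members covered 1. Without polysome replicate 1 only 2 members passed the filter on low counts. Col1a1 then had a log2 fold change of -0.94, with 1 polysome library left in that fit.

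SMN IP against polysomes gave the large differences among the collagen genes: 6 of 7 were called higher and none lower by edgeR, where 16.4% of 6484 genes were called higher and 11.1% lower. Genotype and protocol change together between these groups, so they cannot be told apart. Col3a1 rose most, by 3.30 on the log2 scale (SE 0.27, adjusted p 2.00e-06), a 9.85-fold difference that lay above 99.8% of genes tested. Col4a1 was higher by 2.00 (SE 0.24, adjusted p 6.84e-05), Col5a2 by 1.90 (adjusted p 3.37e-04), Col1a1 by 1.66 (adjusted p 0.00564), Col4a2 by 1.62 (adjusted p 7.24e-04) and Col1a2 by 0.94 (adjusted p 0.0255). Col5a1 had a log2 fold change of 0.56 and an adjusted p of 0.194, with a 95% interval of -0.11 to 1.24. The called genes included 4 of the 5 fibrillar members and both basement membrane members, and the type IV values lay inside the fibrillar range. Col5a2 passed the filter on low counts (42.1 CPM in 2 libraries) through the SMN IP libraries, with 1 of 2 polysome libraries over it, while the other 6 genes had both polysome libraries over it. With no filter, 6 of 7 were likewise called higher and none lower, where 5.25% of 17292 genes were called higher and 7.03% lower.

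Single libraries decided some of these calls. Without either polysome library fewer of the 7 genes were called, with the 1 left assumed to vary like the SMN IP libraries. Calls over all genes also moved when a library was left out, so this loss cannot be read as particular to the collagens. Without SMN IP replicate 2, in which Col1a1 had 1500 CPM, Col1a1 had a log2 fold change of 1.35 and an adjusted p of 0.265 by edgeR. With library totals in place of TMM, a scaling that assumes most genes do not change, the median of all genes moved to -0.31, against -0.02 with TMM. Calls over all genes were then 636 higher and 1578 lower, against 1062 higher and 719 lower with TMM, and Col1a2 was no longer called (log2 fold change 0.64, adjusted p 0.0939 by edgeR). All fold changes remained above 0 under each alternative in which they were tested (5 of the 7 genes with a minimum count of 50), and that of Col3a1 stayed between 3.01 and 3.42.

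IgG IP against the same polysomes is given beside it, as a pull-down without the SMN antibody; the 2 comparisons share the polysome libraries. With 1 IgG IP library, assumed to vary like the polysomes, edgeR called 4 of the 7 genes higher and none lower, where 10.3% of 12709 genes were called higher and 9.15% lower. The log2 fold change was 3.51 for Col3a1 (adjusted p 2.00e-27), 2.19 for Col4a1 (adjusted p 1.54e-15), 1.76 for Col4a2 (adjusted p 3.11e-10) and 1.58 for Col5a2 (adjusted p 0.00136). Col1a1 had 1.54, with an adjusted p of 0.181, Col5a1 0.35 (adjusted p 0.653) and Col1a2 0.29 (adjusted p 0.367). DESeq2 called Col1a1 higher (1.60, adjusted p 0.0245) and did not call Col5a2 (1.65, adjusted p 0.0661). With library totals the calls over all genes were 1049 higher and 1824 lower, against 1311 and 1163 with TMM, and the same count of 4 members was called. The side-by-side values were 3.30 in SMN IP and 3.51 in IgG IP for Col3a1, and 2.00 and 2.19 for Col4a1.

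**Figure D3:**
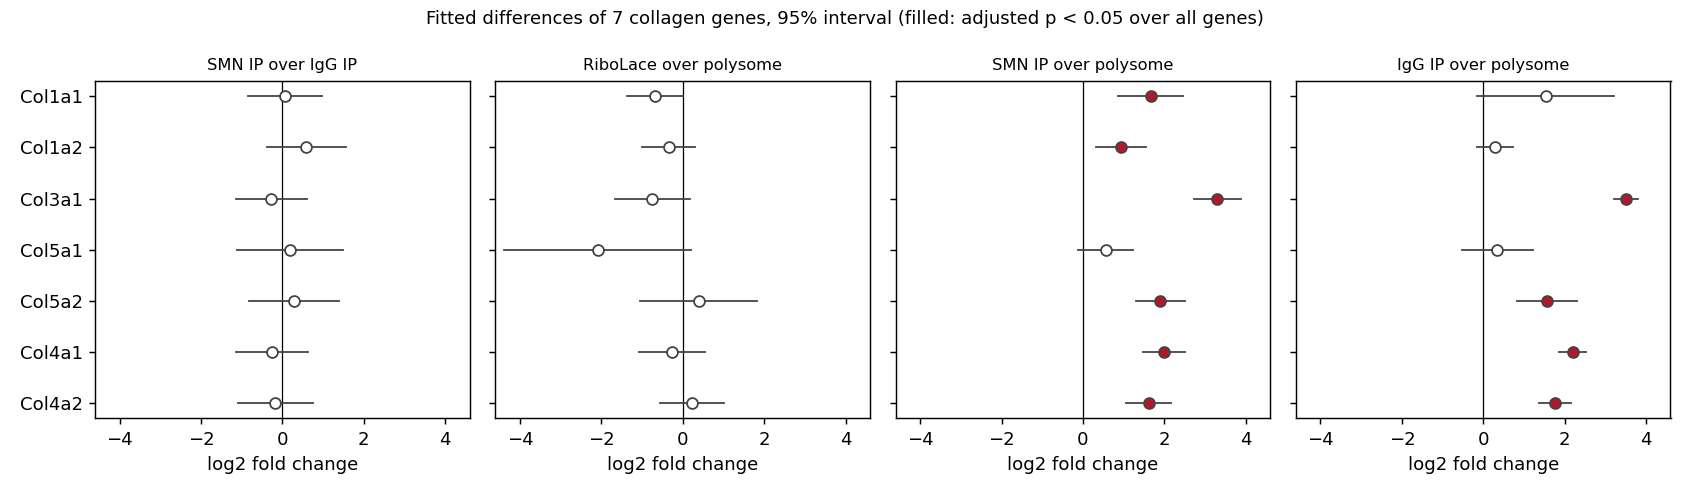
Log2 fold changes of the 7 collagen genes (rows, fibrillar above basement membrane) with 95% intervals in 4 comparisons, filled where the adjusted p from edgeR over all genes was under 0.05. No gene is filled for SMN IP over IgG IP or for RiboLace over polysome, 6 are filled for SMN IP over polysome and 4 for IgG IP over polysome.

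Coding length moved with the difference between pull-downs and polysomes across all genes. In SMN IP against polysomes the median log2 fold change was -0.37 for genes under 1 kb of coding region, -0.10 from 1 to 2 kb, 0.23 from 2 to 4 kb, 0.76 from 4 to 6 kb and 1.16 from 6 kb on. In IgG IP against polysomes the same medians were -0.54, -0.23, 0.23, 0.77 and 1.15. The collagen genes are long, with 4119 (Col1a2) to 5517 (Col5a1) coding bases. Its part in the collagen result was not tested.

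Against genes of that length range, the members divided. Of the 266 such genes tested in SMN IP against polysomes, the 7 members left out, 47.0% were called higher and 2.26% lower, with a median log2 fold change of 0.76 and quartiles at 0.15 and 1.17. Col5a1 lay below that median and Col1a2 above it but under the upper quartile. Col1a1, Col4a2, Col5a2 and Col4a1 lay above the upper quartile, with 21, 26, 9 and 4 genes of the range higher than they were. Col3a1 had a higher fold change than each of the 266 genes, and than each of the 407 genes of that range tested in IgG IP against polysomes, where the median was 0.80 and 32.9% were called higher.

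**Figure D4:**
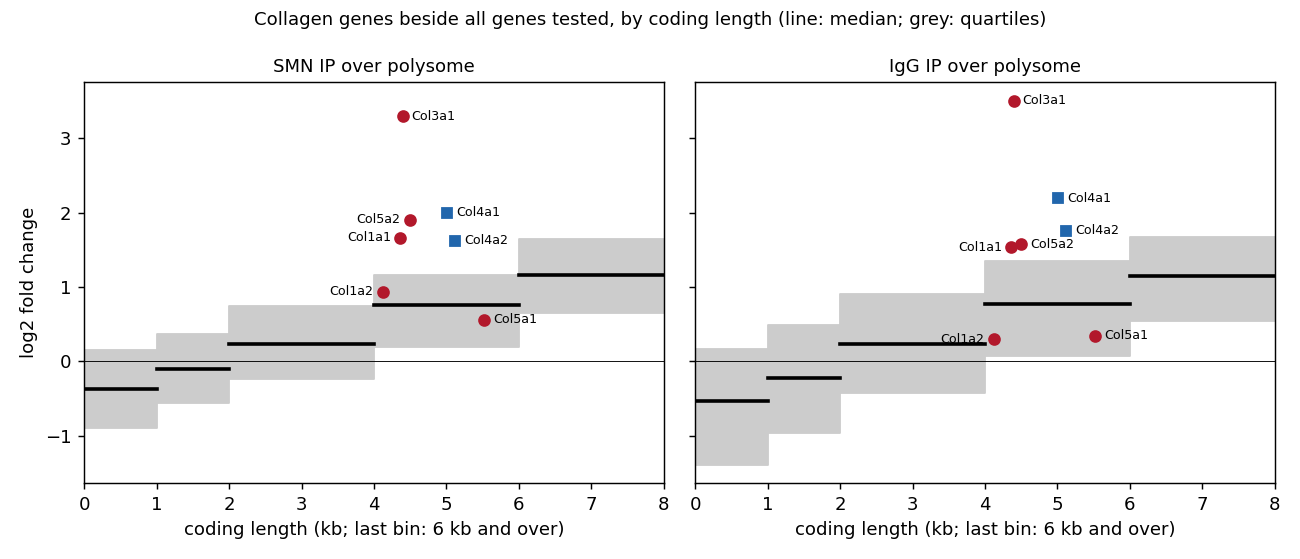
Log2 fold change against coding length in kb for SMN IP over polysome and IgG IP over polysome; black lines are medians and grey boxes quartiles of all genes tested in each length bin (the last bin holds all genes from 6 kb on), red circles are fibrillar and blue squares basement membrane collagens. The medians climb from -0.37 to 1.16 for SMN IP and from -0.54 to 1.15 for IgG IP; Col3a1, at 3.30 and 3.51, lies far above its bin, while Col1a2 and Col5a1 lie within the grey boxes.

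Markers of the cells that make collagen were compared in the same libraries. The 11 markers of leptomeningeal fibroblasts summed to 1403, 1043 and 1468 CPM in SMN IP and 1098 CPM in IgG IP, against 1275 and 1625 CPM in RiboLace and 1047 and 1024 CPM in polysomes, with Crabp2 at 0 in the SMN IP libraries and Slc22a6 at 0 in IgG IP (both named after their values were seen). Ptgds and Igf2 made up much of the sum, with means of 544 and 372 CPM in SMN IP, against 384 and 141 CPM in polysomes. Of the 9 tested in SMN IP against polysomes, 4 had a fold change above 0, and the median log2 value was -0.11. Among them 2 were called higher (Igf2 and Ptgds, named after their values were seen) and 1 of the 9 lower (Slc6a13, named likewise, which passed the filter on low counts through the polysomes alone). The 12 endothelial markers summed to 600, 698 and 362 CPM in SMN IP and 542 CPM in IgG IP, against 293 and 279 CPM in RiboLace and 484 and 459 CPM in polysomes. The 10 pericyte and mural markers summed to 644, 773 and 580 CPM in SMN IP and 624 CPM in IgG IP, against 481 and 330 CPM in RiboLace and 486 and 518 CPM in polysomes. Of the 5 pericyte markers tested in SMN IP against polysomes, 2 were called higher (Cspg4 and Acta2, each at 0.90 and named after their values were seen) and none lower. Of the 5 endothelial markers tested, Eng, named likewise, was called higher (1.45, adjusted p 0.0121 by edgeR) and none lower. Eng passed the filter through the SMN IP libraries alone, with 53.5 CPM in SMN IP and 23.2 CPM in polysomes. With no filter, 3 of 10 pericyte, 2 of 12 endothelial and 1 of 11 fibroblast markers were called higher, and 0, 0 and 2 lower. Over all genes 5.25% were called higher and 7.03% lower with no filter, and 16.4% and 11.1% with it.

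The pull-down and polysome sums of fibroblast and endothelial markers overlapped or lay close together, although single fibroblast markers moved both ways. The pericyte sums of all pull-down libraries lay above those of polysomes. Endothelial markers at 0 numbered 1 to 2 in the pull-downs, against 7 and 8 in RiboLace and 0 in polysomes; Emcn was at 0 in all pull-down libraries, and Pecam1, Tie1 and Eng were at 0 in both RiboLace libraries (all 4 named after their values were seen). Pericyte markers at 0 numbered 1 to 3, against 2 and 3 in RiboLace and 0 in polysomes. The 7 markers of bone and cartilage, tissues rich in type I and type II collagen, summed to 21.7 to 60.0 CPM in SMN IP and 38.7 CPM in IgG IP, against 0 and 20.9 CPM in RiboLace and 27.1 and 57.9 CPM in polysomes. The part of these cells in the collagen result was not tested.

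The basement membrane partners of type IV collagen (laminins, nidogens, perlecan, agrin and Smoc proteins) differed in the same comparison. Of 15 listed genes 13 were tested in SMN IP against polysomes, and 10 were called higher and 0 lower by edgeR, beside 16.4% higher and 11.1% lower over all genes tested. Among all genes from 4 to 6 kb of coding region 46.5% were called higher, and from 6 kb on 69.1%. Of the 13, 6 passed the filter on low counts through the SMN IP libraries, so the count of 10 supports nothing by itself. With no filter, 10 of all 15 were called higher and none lower, beside 5.25% and 7.03% over all genes. Of the 4 with the most reads, Agrn, which encodes a heparan sulphate proteoglycan, had 1.79 (adjusted p 2.45e-04) and Lamc1, the common laminin gamma chain, 0.92 (adjusted p 0.0171), whereas the nidogens Nid1 and Nid2, which link laminin to type IV collagen, had 0.58 and 0.47 and were not called. In IgG IP against polysomes 8 of 14 tested were called higher and none lower, beside 10.3% and 9.15% over all genes, 32.3% higher from 4 to 6 kb and 55.6% higher from 6 kb on. None was called in SMN IP against IgG IP or in RiboLace against polysomes, with 13 tested in each.

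The list of 27 other collagen genes does not cover the whole family, and Col26a1, named below with 277 reads over the 8 libraries, is not in it. Of the 27, 8 passed the filter on low counts for SMN IP against polysomes, and 5 were called higher and 0 lower. The 5 called genes passed through the SMN IP libraries, with 12.5 to 40.6 CPM in polysomes, so their count supports nothing. With no filter, 5 of 27 were called higher and none lower, beside 5.25% and 7.03% over all genes. Col6a1 had 0.44, Col9a2 -0.11 and Col9a3 0.05, none of them called, while Col6a2, a partner of Col6a1 in the beaded filaments of type VI collagen, was called higher at 1.09 (adjusted p 0.0226 by edgeR). The other called genes, named after their values were seen, were Col2a1, the cartilage fibril collagen, at 2.48 (adjusted p 0.00424), Col4a5, a further type IV chain, at 1.81 (adjusted p 0.00179), Col18a1 at 1.41 and Col12a1 at 1.27. Against polysomes, IgG IP had 4 of 21 tested called higher and none lower, beside 10.3% and 9.15% over all genes, and 7 of 27 called higher and none lower with no filter, beside 6.67% and 7.64%. None of the 9 tested in SMN IP against IgG IP or of the 15 in RiboLace against polysomes was called.

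The genes for enzymes and chaperones that fold and export collagen were compared next. Of 22 listed genes 10 were tested in SMN IP against polysomes, with 3 called higher and 0 lower, beside 16.4% and 11.1% over all genes. With no filter, 1 of 22 was called higher and none lower, beside 5.25% and 7.03% over all genes. P4hb, a subunit of prolyl 4-hydroxylase, had -0.13, the chaperone Hspa5 0.43 and the coat protein gene Sec23a 0.32, none of them called, while the prolyl isomerase gene Ppib was called higher at 0.81 (adjusted p 0.0324 by edgeR). The other called genes, named after their values were seen, were Serpinh1, the collagen chaperone HSP47, at 0.85 (adjusted p 0.00880) and P4ha1, a catalytic subunit of prolyl 4-hydroxylase, at 1.28 (adjusted p 0.0467). P4ha1 passed the filter through the SMN IP libraries alone, with 48.9 CPM in SMN IP and 21.9 CPM in polysomes, and with no filter it was not called (adjusted p 0.0571 by edgeR). In IgG IP against polysomes 2 of 19 were called higher (P3h1 and P3h3, both prolyl 3-hydroxylases, named after their values were seen) and 1 lower (P4hb, at -0.88), beside 10.3% and 9.15% over all genes. P3h1 passed the filter through the IgG IP library alone, with 29.0 CPM in IgG IP and 5.24 CPM in polysomes.

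Genes for collagen processing, crosslinking and fibril binding had 2 called higher and 0 lower of 7 tested, out of 20 listed, in SMN IP against polysomes, beside 16.4% and 11.1% over all genes. With no filter, 2 of 20 were called higher and none lower, beside 5.25% and 7.03% over all genes. Sparc, a collagen-binding glycoprotein, had 0.32, Bmp1, the procollagen C-proteinase, -0.14 and Fmod, a proteoglycan of collagen fibrils, -0.13, none of them called, and Pxdn, the peroxidase that crosslinks type IV collagen, was called higher at 1.05 (adjusted p 0.0168 by edgeR). Fn1, the fibronectin gene, named after its values were seen, was called higher at 3.30 (adjusted p 5.29e-05), close to the value of Col3a1, and had 3.77 in IgG IP against polysomes. It passed the filter through the SMN IP libraries alone, with 197 CPM in SMN IP and 26.0 CPM in polysomes, and was called with no filter too (3.13, adjusted p 7.75e-27 by edgeR). In IgG IP against polysomes 5 of 17 were called higher and 1 lower, beside 10.3% and 9.15% over all genes.

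Of 9 collagen receptors 4 were tested in SMN IP against polysomes, where 16.4% of all genes were called higher and 11.1% lower. Ddr1, a receptor tyrosine kinase that binds collagen, at 1.27 (adjusted p 0.024 by edgeR) and Mrc2, an endocytic receptor, at 1.19 (adjusted p 0.0275) were called higher. Both passed the filter through the SMN IP libraries alone: Ddr1 had 59.7 CPM in SMN IP and 28.6 CPM in polysomes, and Mrc2 had 52.4 CPM in SMN IP and 26.6 CPM in polysomes. With no filter Ddr1 was called (adjusted p 0.0256 by edgeR) and Mrc2 was not (adjusted p 0.06). Adgrg1, which binds Col3a1 in developing cortex, had 0.43 and Itgb1 -0.21, and neither was called. Of 10 genes of collagen degradation 6 were tested, and Mmp2, a gelatinase that cleaves type IV collagen, named after its values were seen, was called lower at -1.47 (adjusted p 0.0276 by edgeR). Mmp2 passed the filter through the polysomes alone, with 15.5 CPM in SMN IP and 52.2 CPM in polysomes. With no filter 3 of the 10 degradation genes were called lower and none higher, beside 7.03% lower and 5.25% higher over all genes. The metalloproteinase inhibitor genes Timp2 and Timp3 and the membrane-type metalloproteinase genes Mmp15 and Mmp14, which had the most reads of this list, had -0.28, -0.62, -0.0095 and 0.12 in that order, and none was called. In IgG IP against polysomes 1 receptor of 8 (Ddr1) was called higher and 1 of 9 degradation genes (Timp2) lower. Over all genes 10.3% were called higher and 9.15% lower there. In RiboLace against polysomes 1 gene of the lists on folding, processing, receptors and degradation was called. It was Mmp15, at -2.52 (adjusted p 0.00317 by edgeR), where 1.31% of all genes were called higher and 0.925% lower.

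The genes most like the collagens in profile were taken from 5921 candidates with at least 200 reads, by the root mean square difference in mean-centred log2 CPM over the 8 libraries. For the summed fibrillar genes they were Myo10 (0.25), Kmt2d (0.31), Csmd1 (0.35), Dync1h1 (0.37) and Apc2 (0.39), where the median candidate differed by 1.23. For the summed basement membrane genes they were Kmt2d (0.17), Col26a1 (0.22), Ank3 (0.22), Dync1h1 (0.23) and Grcc10 (0.25), where the median candidate differed by 1.09. Of the members themselves, Col4a1 and Col4a2, which are not part of the fibrillar sum, differed from it by 0.19 and 0.49. The genes that make up that sum differed from it by 0.30 (Col1a1), 0.65 (Col5a2), 0.70 (Col1a2), 0.78 (Col3a1) and 1.17 (Col5a1). Coding lengths of these genes were not compared, and the part of library depth or coding length in these profiles was not tested.

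Shorter coding transcripts carried a minor share of the counts. For Col3a1, the transcript of 583 bases with suffix 006 had 11.9%, 5.92% and 16.2% of the main transcript's reads in SMN IP and 14.3% in IgG IP, against 0% in both RiboLace libraries and 12.3% and 9.52% in polysomes. The transcript of 737 bases with suffix 007 had 11.3%, 7.69% and 14.0% in SMN IP and 17.5% in IgG IP, against 25% in both RiboLace libraries, on 1 read each, and 9.13% and 9.26% in polysomes. Pull-down and polysome shares overlapped for the first of these transcripts, and for the other the SMN IP shares lay on both sides of the polysome shares.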

How the data were processed

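Counts of ribosome-protected fragments per transcript were deposited by the authors as 1 table for all 8 libraries. The tools named in the submitters' processing notes are SAMtools, Bowtie2 2.2.6 and Trimmomatic 0.36, with the build GRCm38.p4. The sources used here do not say how reads shared by several transcripts were counted, or whether by strand, so deposited counts of overlapping transcripts may share reads. The table's lengths of transcripts and coding regions, deposited by the authors with the counts, gave levels per kb.

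One protein-coding transcript per gene was kept, the one with the largest sum of counts after scaling each library to the mean total, and CPM was taken relative to the total over these transcripts (39375 to 2295393 reads). The main test was edgeR 4.0.16 (TMM, filterByExpr with a minimum count of 10, robust quasi-likelihood, two-sided, Benjamini-Hochberg over all genes tested, called under 0.05), in R 4.3.3, fitted on the 2 groups compared and tested on simulated data. All 7 members passed the filter in each of the 4 comparisons. SEs were obtained from each fold change and its F statistic (absolute log2 value over root F). Alternatives were DESeq2 1.42.0, limma-voom 3.58.1, library totals, no filter, a minimum count of 50, 1 fit of all 8 libraries, counts summed per gene, the replicate number as a block and leaving out each library. Intervals are exact binomial or Poisson. SMN IP and polysome replicates differed beyond sampling noise (chi-square per gene 1.34 to 3.26); the RiboLace pair had 1.05 (chi-square p 0.0497 over 2115 genes) and was kept as 2 samples. Python 3.11.15, pandas 2.3.3, scipy 1.17.1 and matplotlib 3.10.9 were used.

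The members, gene lists and markers were chosen with earlier results of these data known. The text names all 7 members, up to 4 genes with the most reads of each list, and the 5 genes most like each collagen class in profile; any other gene is said to be named after its values were seen. Counts of lists with no filter, and the group through which a listed gene passed the filter, were added after seeing the data. Age-matched control RiboLace and polysome libraries were not analysed here.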

Additional observations from a re-analysis of the deposited data

Results flagged for a closer look

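Reads also fell on transcripts of the collagen genes that are annotated as noncoding and that none of the comparisons used. Summed over the 8 libraries, these counts were 133 for 3 transcripts of Col1a1, 706 for 6 of Col1a2, 223 for 4 of Col3a1, 71 for 1 of Col4a1, 60 for 1 of Col4a2 and 63 for 3 of Col5a2, all above the 3 counts that an observed 0 allows. Col1a2 had the most, with 29, 30 and 34 counts in the SMN IP libraries, 49 in IgG IP, 3 and 5 in RiboLace and 174 and 382 in polysomes. These are raw counts, not scaled to depth, and give no difference between groups. Coding reads numbered 138239, 133295 and 237760 in SMN IP and 206690 in IgG IP. They numbered 47846 and 39375 in RiboLace and 1661834 and 2295393 in polysomes. Whether these reads were also counted on the coding transcripts was not tested.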

How the results depend on the processing

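The 6 of 7 collagen calls in SMN IP against polysomes ranged from 2 to 6 when single libraries were left out, and 0 to 1 were called in RiboLace against polysomes; no other alternative moved a count of called members by over 1.5 times. Counts over all genes moved more. For SMN IP against IgG IP, 1 gene was called in the reported fit, against 0 with DESeq2, 0 with a minimum count of 50, 2 with all 8 libraries, 0 with counts summed per gene, and 0 to 5 when a library was left out. For RiboLace against polysomes, 242 became 0 with limma-voom, 70 with all 8 libraries, 58 with the replicate block and 33 to 183 with a library left out, and DESeq2 called 179 higher and 5 lower. For SMN IP against polysomes, 1781 became 360 with a minimum count of 50 (1220 genes tested), 1115 with counts summed per gene, 371 with the replicate block and 141 to 3348 with a library left out. For IgG IP against polysomes, 2474 became 613 with DESeq2 (452 higher, 161 lower), 1096 with all 8 libraries and 4053 with summed counts; leaving out a library was not run there, as it leaves 1 library a side. The cause of these moves was not tested.

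Direction changed only for values near 0 or on few reads. Col1a1 in SMN IP against IgG IP had -0.089 with limma-voom, -0.022 with a minimum count of 50 and -0.28 to 0.39 with a library left out, below 0 without SMN IP replicate 2 (-0.28) and replicate 3 (-0.0071). In RiboLace against polysomes without RiboLace replicate 1, Col1a2 had 0.29, Col4a1 0.011 and Col5a2 -0.88. Across the libraries left out, the lowest and highest values were -1.51 and 0.29 for Col1a2, -0.69 and 0.011 for Col4a1, and -0.88 and 0.90 for Col5a2.

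Deviations of same-numbered libraries had correlations of 0.0234 for RiboLace with polysomes, and 0.00458 and 0.0315 for SMN IP with polysomes. At the low depth of RiboLace this check cannot exclude a pairing with polysomes. SMN IP and polysomes came from mice of different genotypes. With the replicate block 5 members were called in SMN IP against polysomes, with Col1a2 at 1.03 and an adjusted p of 0.0975 by edgeR. No paired fit was possible with IgG IP, which has 1 library. Col1a2 was also lost with a minimum count of 50, with summed counts, without SMN IP replicate 3 and without either polysome library, Col4a2 without either polysome library, and Col1a1 and Col5a2 without polysome replicate 1. In IgG IP against polysomes Col1a1 was called with DESeq2, limma-voom, no filter and all 8 libraries, and Col5a2 was lost with DESeq2 (adjusted p 0.0661). By length of transcript (chosen after seeing the data for the chains) the ratios between chains of a trimer and between classes stayed within 1 SD or the interval of the reported value. The ratio of Col3a1 to Col1a1 was not part of this check. In RiboLace a single library set the chain ratios: Col1a1 over Col1a2, 1.38 on average, was 0.69 and 2.08 without replicate 1 and 2, and Col5a1 over Col5a2, 0.10 on average, was 0 and 0.20. Depth limits RiboLace most, where 1 to 22 reads per gene over both libraries underlie each level.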
